A study of Rattus norvegicus with 11 samples.

Results

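The genes described here encode the T cell receptor (TCR) complex and the proteins that work beside it. They are the CD3 chains Cd3e, Cd3d and Cd3g, the zeta chain Cd247, the coreceptors Cd4, Cd8a and Cd8b, the kinases Zap70 and Lck, and the adhesion receptor Cd2. The 10 genes were chosen by name, not by any measured value, and all 10 were found among the 24481 genes with read counts and the 24205 genes with FPKM (a read level corrected for gene length and for library size, so that genes can be compared with each other). The files place Cd3e, Cd3d and Cd3g on chromosome 8, Cd4, Cd8a and Cd8b on chromosome 4, Cd247 on 13, Zap70 on 9, Lck on 5 and Cd2 on 2 of the mRatBN7.2 rat genome.

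RNA was sequenced from the ileum of SD rats that were 6 to 8 weeks old, and the study's methods describe them as male. The 3 groups were a control group (3 libraries), a group with severe acute pancreatitis (SAP, 4 libraries) and a group with SAP that received JZL184 (4 libraries). SAP was produced by infusion of 3% sodium taurocholate, a bile salt, into the pancreatic duct. The methods state that rats were divided into the groups 24 h after the surgery. JZL184, an inhibitor of the endocannabinoid-degrading enzyme monoacylglycerol lipase, was then given intraperitoneally at 10 mg/kg, and control and SAP rats received its vehicle. All rats were killed 24 h after this treatment. The comparisons ask how the ileum differs between SAP and control and whether it differs again after JZL184. The labels name a control plasmid as the treatment of the control rats and the titles of the SAP libraries carry the word oil, neither of which the methods mention, and whether control rats had sham surgery is not given in the sources used here. One characteristic in the labels calls the material intestinal epithelial cells while the source is given as ileum tissue. Markers of smooth muscle, endothelium and leukocytes were present in every library, so the libraries hold RNA of many cell types.

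A T cell recognizes a peptide on an MHC molecule through its TCR, which has no signaling tail of its own. The CD3 and zeta chains carry the signal: CD4 or CD8 brings the kinase LCK to the complex, LCK phosphorylates the chains, and ZAP-70 binds the phosphorylated chains and passes the signal on. In the ileum, T cells lie within the epithelium, in the lamina propria and in Peyer's patches. CD8 is frequent on the T cells of the epithelium, often as a dimer of 2 alpha chains. In rats CD4 is also found on macrophages, and CD2 and CD8 alpha are also found on natural killer cells.

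Promoter windows of 300 bases were read from RefSeq for GRCr8, which is a later rat build than the one the files use, and 8 of the 10 genes had an entry, with 9 windows. Cd4 and Cd8b had none. Cd3g, Cd3d and Cd3e are neighbors on chromosome 8, with Cd3d on the opposite strand from the other 2. The windows of Cd3d and Cd3g are printed because these divergent neighbors parted in a JZL184 library described below, and those of Zap70 and Lck because these kinases lay among the lowest members after JZL184. Capitals mark AGGAAG, letters at the core of many ETS factor sites, and TGTGGT, a RUNX core, on either strand (CTTCCT and ACCACA when read on the other strand). The motifs do not overlap in these windows.
Cd3d, chr8:54185269-54185568, plus strand: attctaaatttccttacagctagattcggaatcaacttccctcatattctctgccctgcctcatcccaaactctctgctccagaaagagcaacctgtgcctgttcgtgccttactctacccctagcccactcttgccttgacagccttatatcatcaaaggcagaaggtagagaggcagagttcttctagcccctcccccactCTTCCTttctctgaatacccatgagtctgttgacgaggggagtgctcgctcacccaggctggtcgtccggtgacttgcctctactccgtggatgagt
Cd3g, chr8:54183869-54184168, minus strand: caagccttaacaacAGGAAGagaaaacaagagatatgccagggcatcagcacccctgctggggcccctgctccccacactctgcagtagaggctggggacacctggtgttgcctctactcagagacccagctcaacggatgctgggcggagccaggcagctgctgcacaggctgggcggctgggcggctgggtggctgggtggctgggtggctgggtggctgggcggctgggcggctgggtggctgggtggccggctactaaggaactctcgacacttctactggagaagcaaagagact
Zap70, chr9:46485355-46485654, plus strand: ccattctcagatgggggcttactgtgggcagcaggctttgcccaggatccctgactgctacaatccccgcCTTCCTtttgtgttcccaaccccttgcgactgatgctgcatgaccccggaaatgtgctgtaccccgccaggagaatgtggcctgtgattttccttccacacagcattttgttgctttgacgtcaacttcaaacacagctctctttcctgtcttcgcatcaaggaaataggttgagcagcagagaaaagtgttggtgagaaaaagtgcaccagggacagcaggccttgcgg
Lck, first window, chr5:147201218-147201517, minus strand: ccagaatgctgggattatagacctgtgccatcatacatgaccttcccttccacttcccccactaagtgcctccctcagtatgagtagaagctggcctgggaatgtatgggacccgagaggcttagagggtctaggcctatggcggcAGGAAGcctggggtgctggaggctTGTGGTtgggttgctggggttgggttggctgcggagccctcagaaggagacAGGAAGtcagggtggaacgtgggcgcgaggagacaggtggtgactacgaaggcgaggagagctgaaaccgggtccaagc
Lck, second window, chr5:147183601-147183900, minus strand: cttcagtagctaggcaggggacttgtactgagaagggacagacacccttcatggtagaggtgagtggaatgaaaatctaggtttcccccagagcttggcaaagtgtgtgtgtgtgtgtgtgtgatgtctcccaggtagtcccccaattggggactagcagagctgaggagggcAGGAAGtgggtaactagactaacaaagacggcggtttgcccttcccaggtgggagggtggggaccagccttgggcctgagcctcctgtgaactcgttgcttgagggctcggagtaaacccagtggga

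AGGAAG occurred in the windows of Cd3e, Cd3d, Cd3g, Cd247, Zap70 and both windows of Lck, and in 34.5% of all 33469 promoters of the table. TGTGGT occurred in the first window of Lck and in that of Cd2, and in 17.3% of all promoters. TATAAA, the letters of a TATA box, occurred in none of the 9 windows and in 14.2% of all promoters. Relative to the start site, the ETS letters lay at -47 in Cd3d, -236 in Cd3g, -180 in Zap70, -104 and -29 in the first window of Lck and -77 in the second. These matches describe the letters only.

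Between 26341299 and 33847135 reads per library were counted on genes. Control libraries 1 and 2 were nearly the same library, with 2.81 as the chi-square per gene (genes with at least 20 reads in the pair), against 77.5 to 563 for every other pair within a group. They were counted as 1 sample, which left n = 2 in the control group, and means and SDs below are over these samples. SAP libraries 1 and 2 stood apart from SAP libraries 3 and 4 (chi-square per gene 337 to 563 between these pairs, 85.5 and 99.1 within them). The JZL184 group was not uniform either, with 309 to 406 between library 3 and the others and 115 to 269 among libraries 1, 2 and 4. SAP library 2 had 20 reads on 3 Y-linked genes, where the other libraries had between 1222 and 4665. Fold changes of the members in the comparisons with SAP are therefore given with and without SAP libraries 1 and 2. Those of other genes are given with all SAP libraries.

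In control ileum the members spanned a wide range of FPKM. The CD3 gamma chain Cd3g was highest at 51.3 ± 1.10 FPKM (SD, n = 2), followed by Cd3d at 29.9 ± 6.80, Cd4 at 21.8 ± 4.18 and Cd3e at 16.5 ± 0.081. Lck followed at 11.2 ± 0.238, Cd8a at 10.2 ± 2.14, Cd2 at 9.23 ± 0.243, Zap70 at 6.38 ± 0.0424, Cd247 at 4.36 ± 0.658 and Cd8b at 1.47 ± 0.226 FPKM. Cd3d lay above Cd4 and Lck above Cd2 in each of the 3 control libraries. Cd8a, with a wider spread, overlapped both Lck and Cd2, so its place in the order is not resolved by these samples.

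**Figure D1:**
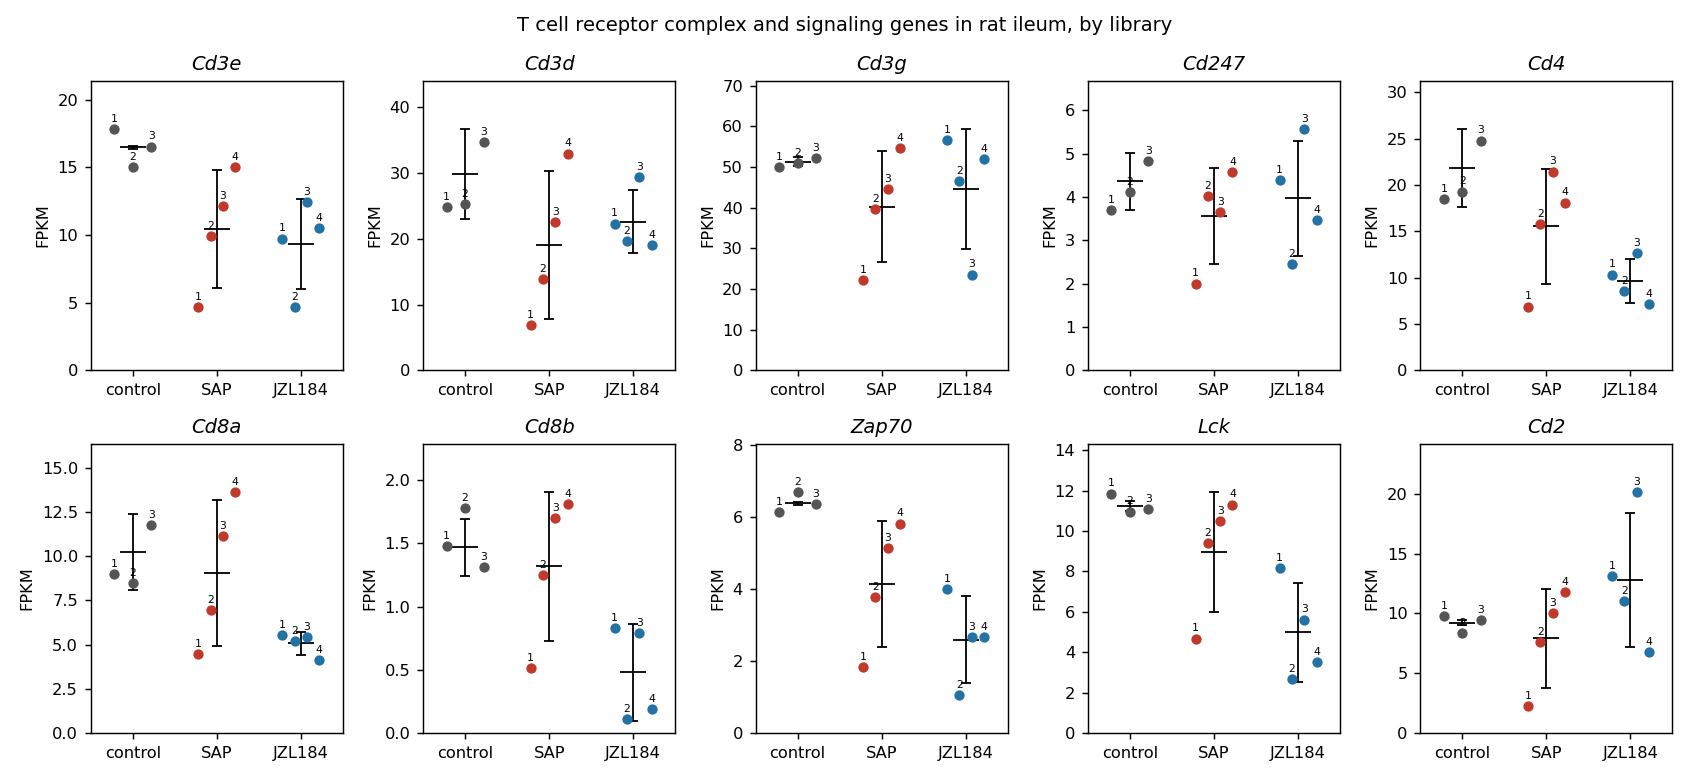
FPKM (vertical axes, each from 0) of the 10 genes in every library by group, where numbered points are libraries and bars show mean ± SD with control libraries 1 and 2 averaged to 1 sample. SAP library 1 is the lowest SAP library for every gene, all JZL184 libraries lie below all control libraries for Cd4 and Cd8a, and Cd2 reaches 20.2 FPKM in JZL184 library 3.

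The CD3 and zeta chains come first, since they form the signaling part of the receptor. Cd3e, the epsilon chain, measured 17.8, 15.0 and 16.5 FPKM in control libraries 1 to 3. It measured 4.69, 9.92, 12.1 and 15.0 FPKM in SAP libraries 1 to 4 and 9.74, 4.68, 12.4 and 10.5 FPKM in JZL184 libraries 1 to 4. Every SAP and JZL184 library lay below every control library, although SAP library 4 (15.00) lay just under control library 2 (15.02), and the SAP and JZL184 libraries overlapped.

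Cd3d, the delta chain, measured 24.9, 25.3 and 34.7 FPKM in control, 6.87, 13.9, 22.5 and 33.0 in SAP, and 22.3, 19.7, 29.4 and 19.0 in the JZL184 group. SAP libraries ran from far below the controls to within their range, and JZL184 library 3 also reached the control range. Cd3g, the gamma chain, measured 50.02, 50.98 and 52.1 FPKM in control, 22.1, 39.5, 44.6 and 54.6 in SAP, and 56.5, 46.4, 23.5 and 51.9 in the JZL184 group. JZL184 library 3 held the lowest Cd3g and the highest Cd3d of its group, so that the 2 neighboring genes parted there, and in the other libraries of the group Cd3g lay near the control level. The ratio of Cd3g to Cd3e in FPKM was 2.81 to 3.39 in control libraries, 3.64 to 4.72 in SAP libraries and 5.80, 9.92, 1.89 and 4.93 in JZL184 libraries 1 to 4.

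Cd247, the zeta chain, was the lowest of the 4 signaling chains, with 3.69, 4.11 and 4.83 FPKM in control, 2.00, 4.02, 3.65 and 4.57 in SAP, and 4.39, 2.44, 5.56 and 3.46 in the JZL184 group. All 3 groups overlapped, and only SAP library 1 and JZL184 library 2 lay well below the controls.

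Among the coreceptors, Cd4, which marks helper T cells, measured 18.5, 19.3 and 24.8 FPKM in control, 6.87, 15.7, 21.4 and 18.1 in SAP, and 10.3, 8.54, 12.7 and 7.14 in the JZL184 group. Every JZL184 library lay below every control library, and SAP library 3 lay above control libraries 1 and 2 on this scale. Cd8a, the alpha chain of the coreceptor of cytotoxic T cells, measured 8.99, 8.46 and 11.8 FPKM in control, 4.45, 6.97, 11.2 and 13.6 in SAP, and 5.54, 5.18, 5.41 and 4.13 in the JZL184 group. The JZL184 libraries were again all below the controls and close to each other, while the SAP libraries spread on both sides of the controls. The ratio of Cd4 to Cd8a was 2.06 to 2.28 in control libraries, 1.33 to 2.26 in SAP libraries and 1.65 to 2.34 in JZL184 libraries.

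Cd8b, the beta chain that pairs with the alpha chain on most circulating cytotoxic T cells, was near the limit of these libraries. It had 54, 69 and 53 reads in control, 24, 52, 65 and 75 in SAP, and 36, 4, 30 and 7 in JZL184 libraries. In FPKM these were 1.48, 1.78 and 1.31 in control, 0.51, 1.25, 1.70 and 1.81 in SAP, and 0.83, 0.11, 0.79 and 0.19 in the JZL184 group. JZL184 libraries 2 and 4 held few reads, so their values carry a large counting error, and all 4 JZL184 libraries lay below the controls.

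Of the kinases, Zap70, which binds phosphorylated CD3 and zeta chains, measured 6.13, 6.69 and 6.35 FPKM in control, 1.82, 3.77, 5.13 and 5.81 in SAP, and 3.99, 1.06, 2.67 and 2.65 in the JZL184 group. Lck, the kinase held by the coreceptors, measured 11.9, 10.96 and 11.1 FPKM in control, 4.67, 9.40, 10.5 and 11.3 in SAP, and 8.15, 2.67, 5.61 and 3.50 in the JZL184 group. For both kinases all JZL184 libraries lay below all controls, library 1 was the highest and library 2 the lowest of them, and the SAP libraries ran up to or near the control range. The ratio of Lck to Cd3e was 0.66 to 0.73 in control libraries, 0.754 to 0.996 in SAP libraries and 0.84, 0.57, 0.45 and 0.33 in JZL184 libraries 1 to 4.

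Cd2, an adhesion receptor on T and natural killer cells, measured 9.76, 8.35 and 9.40 FPKM in control, 2.24, 7.62, 10.0 and 11.8 in SAP, and 13.1, 11, 20.2 and 6.76 in the JZL184 group. Cd2 was thus above every control library in JZL184 libraries 1, 2 and 3, and below them in library 4. The ratio of Cd2 to Cd3e was 0.55 to 0.57 in control libraries, 0.48 to 0.83 in SAP libraries, and 1.35, 2.35, 1.62 and 0.64 in JZL184 libraries 1 to 4.

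To set the members beside each other, TMM-normalized counts were expressed as a percent of each gene's control mean. In SAP the members stood at similar levels within a library and the libraries differed. Their median was 27.1% of control in SAP library 1 (range over the 10 genes 18.9 to 37.5%), 60.0% in library 2 (37.6 to 74.1%), 82.4% in library 3 (67.3 to 106%) and 104% in library 4 (81.5 to 131%). All 10 genes lay below every control library in SAP libraries 1 and 2, 6 did in library 3 and 3 in library 4. The lowest values of the SAP group were thus those of libraries 1 and 2, while Cd3e and Zap70 lay below every control library in libraries 3 and 4 as well.

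After JZL184 the medians of the 4 libraries were closer together, at 60.8, 48.9, 50.3 and 53.1% of control, and the members were further apart within a library. The range over the 10 genes was 42.8 to 128% in library 1, 7.78 to 129% in library 2, 37.8 to 197% in library 3 and 13.1 to 102% in library 4. The CD3 and zeta chains had a median of 79.3, 66.4, 78.6 and 72.3% of control in JZL184 libraries 1 to 4. The coreceptors had 49.0, 42.7, 48.0 and 33.1%, and the kinases had 60.8, 21.9, 41.4 and 36.6%. In each of the 4 JZL184 libraries the medians of coreceptors and kinases were below that of the CD3 and zeta chains, and Cd2 stood above all 3 at 128, 129, 197 and 73.9%. In SAP libraries 1 to 4 the CD3 and zeta chains had 29.3, 55.1, 73.0 and 104%, the coreceptors 28.3, 58.1, 100.2 and 119.8%, and the kinases 28.6, 57.3, 79.4 and 93.8% of control. These role medians are a description, and the difference between roles was not tested.

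**Figure D2:**
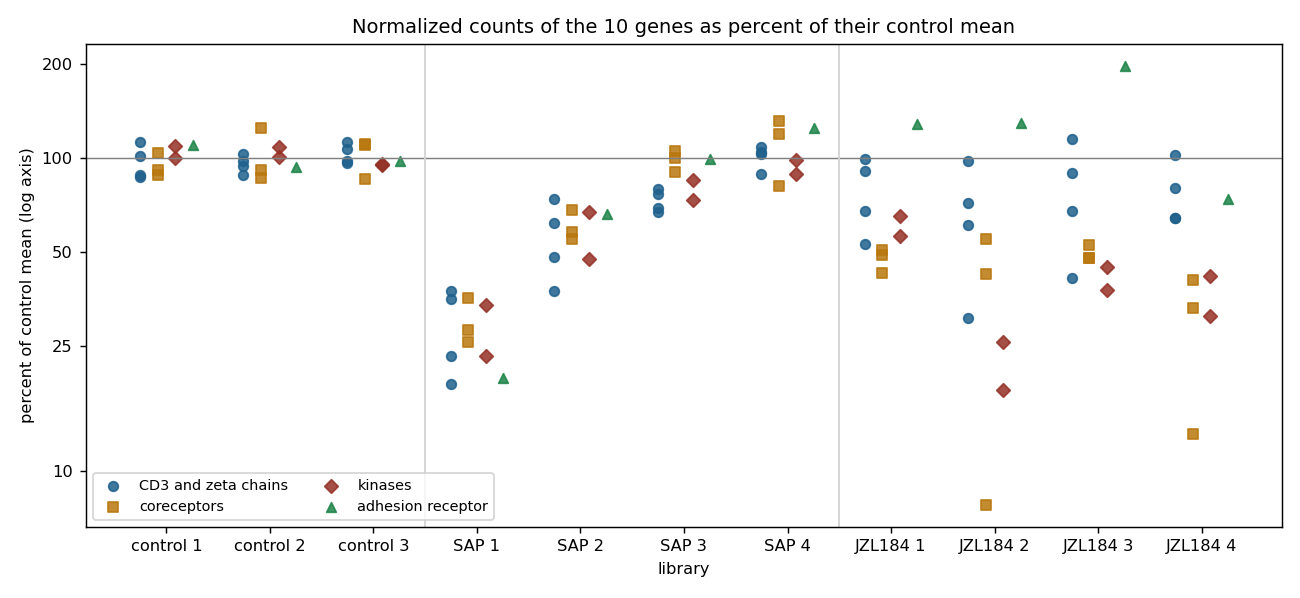
TMM-normalized counts of each of the 10 genes as percent of its control mean (log axis) in the 11 libraries, with symbols for CD3 and zeta chains, coreceptors, kinases and the adhesion receptor Cd2. In SAP libraries the symbols lie together and climb from a median of 27.1% in library 1 to 104% in library 4, whereas in JZL184 libraries the medians of coreceptors and of kinases lie under that of the CD3 and zeta chains and Cd2 lies on top in libraries 1 to 3.

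In SAP against control, the members were lower on average but none passed the test. Log2 fold changes on the counts ran from -0.80 (SE 0.48) for Cd3e to -0.30 (SE 0.50) for Cd8a, with a median of -0.49, where the median over all genes tested was 0.06. Cd3d gave -0.76 (SE 0.60), Zap70 -0.77 (SE 0.49), Cd4 -0.63 (SE 0.46) and Cd2 -0.35 (SE 0.61). All 10 estimates were below 0, as were 46.8% of the 16029 genes tested. By edgeR's quasi-likelihood test with Benjamini-Hochberg adjustment, the adjusted p was 0.463 for Cd3e, 0.475 for Zap70 and 0.507 for Cd4, and higher for the others. The same test called 0 of the 10 members and 0% of all genes (a call needs both an adjusted p under 0.05 and a change of more than 2-fold in either direction). At an unadjusted p below 0.05 it had 0 members lower and 0 higher, beside 3.4% of all genes lower and 5.69% higher, and DESeq2 and limma-voom also called 0 members.

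Normalized counts of Cd3e, Cd4 and Zap70 did not overlap between the SAP and control samples, which was 3 of 10 members beside 11.9% of all genes on the lower side. For Cd4 this holds only with control libraries 1 and 2 taken as 1 sample, since SAP library 3 stood at 90.2% of the control mean and control library 1 at 88.3%, and the FPKM overlapped as well. Without SAP libraries 1 and 2, Cd3e stood at -0.34, Zap70 at -0.28, Cd4 at -0.21, Cd3d at -0.15, Cd247 at -0.14, Cd3g at -0.11 and Lck at -0.11, while Cd8a, Cd8b and Cd2 turned to 0.23, 0.18 and 0.18, and 0 members were called. All 10 estimates of the full group were thus nearer 0 or of opposite sign without SAP libraries 1 and 2. In bulk tissue, fewer T cells and less RNA per T cell cannot be told apart.

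In JZL184 against SAP, the estimates of the members lay on both sides of 0 and none passed the test. Cd8b had the lowest estimate at -1.38 (SE 0.66, log2), followed by Lck at -0.75 (SE 0.40), Cd8a at -0.72 (SE 0.40), Zap70 at -0.59 (SE 0.46) and Cd4 at -0.56 (SE 0.37). Cd3e stood at -0.06 (SE 0.42). Cd2 at 0.79 (SE 0.51), Cd3d at 0.34 (SE 0.46), Cd3g at 0.29 (SE 0.39) and Cd247 at 0.27 (SE 0.36) were above 0. The smallest adjusted p was 0.253, for Cd8b, by edgeR's quasi-likelihood test with Benjamini-Hochberg adjustment. That test called 0 members and 0% of the 15308 genes tested, and DESeq2 and limma-voom also called 0 members. At an unadjusted p below 0.05 it had 0 members lower and 0 higher, beside 11.1% of all genes lower and 10.3% higher, and the groups overlapped for all 10 members, beside 5.59% of genes that lay lower without overlap.

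These estimates also varied with the SAP libraries included. Without SAP libraries 1 and 2, Cd8b stood at -1.87, Cd8a at -1.25, Lck at -1.12, Zap70 at -1.06, Cd4 at -0.99 and Cd3e at -0.52, and Cd3d, Cd3g and Cd247 changed sign to -0.26, -0.10 and -0.03. Cd2 stayed above 0 at 0.25. No member was called in that fit either.

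In JZL184 against control, the coreceptors and kinases had the lowest values, and the signaling chains other than Cd3e, and Cd2, lay nearer to control. The log2 fold change was -1.71 (SE 0.71) for Cd8b, -1.37 (SE 0.41) for Zap70, -1.25 (SE 0.38) for Lck, -1.22 (SE 0.27) for Cd4, -1.04 (SE 0.28) for Cd8a and -0.88 (SE 0.34) for Cd3e. These 6 genes did not overlap between the JZL184 and control samples, which was 6 of 10 members beside 19.3% of the 15916 genes tested on the lower side. Cd3d stood at -0.44 (SE 0.26), Cd3g at -0.23 (SE 0.38), Cd247 at -0.20 (SE 0.34) and Cd2 at 0.41 (SE 0.40), and all 4 overlapped with the controls. The median of the 10 was -0.96, where the median over all genes was 0.08, and 9 of 10 lay below 0, as did 46% of all genes.

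None of the members passed edgeR's quasi-likelihood test with Benjamini-Hochberg adjustment, in which Cd4 came nearest with an adjusted p of 0.0586, followed by Cd8a at 0.0780, Zap70 at 0.0947, Lck at 0.0973, Cd3e at 0.152 and Cd8b at 0.171. That test called 0 members and 2.16% of all genes. At an unadjusted p below 0.05 the 6 genes without overlap were lower (6 of 10, beside 12.5% of all genes) and 0 members were higher (beside 13.8%). DESeq2, the tool of the study, called Cd4, Cd8a, Zap70 and Lck lower (4 of 10, beside 3.72% of the 23630 genes it fitted). Limma-voom with sample quality weights called these 4 and Cd8b (5 of 10, beside 9.78% of genes called lower). The share of DESeq2 is over genes without the filter on low counts and that of limma-voom over the 15916 filtered genes, so the 2 shares are not alike.

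The calls in this comparison depended on the test and on single libraries. Leaving out JZL184 library 1 gave 3 called members (Cd4, Zap70 and Lck) and leaving out JZL184 library 3 gave 1 (Cd4), while leaving out any other library gave 0, including the fits without a control sample, in which the control group held 1. Over the alternatives the adjusted p of Cd4 ran from 0.000204 to 0.485, that of Zap70 from 0.00205 to 0.589, that of Lck from 0.00291 to 0.596 and that of Cd8a from 0.00197 to 0.538, with every estimate of these 4 genes below 0. Both comparisons with control share the control samples, and both comparisons with SAP share the SAP libraries.

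**Figure D3:**
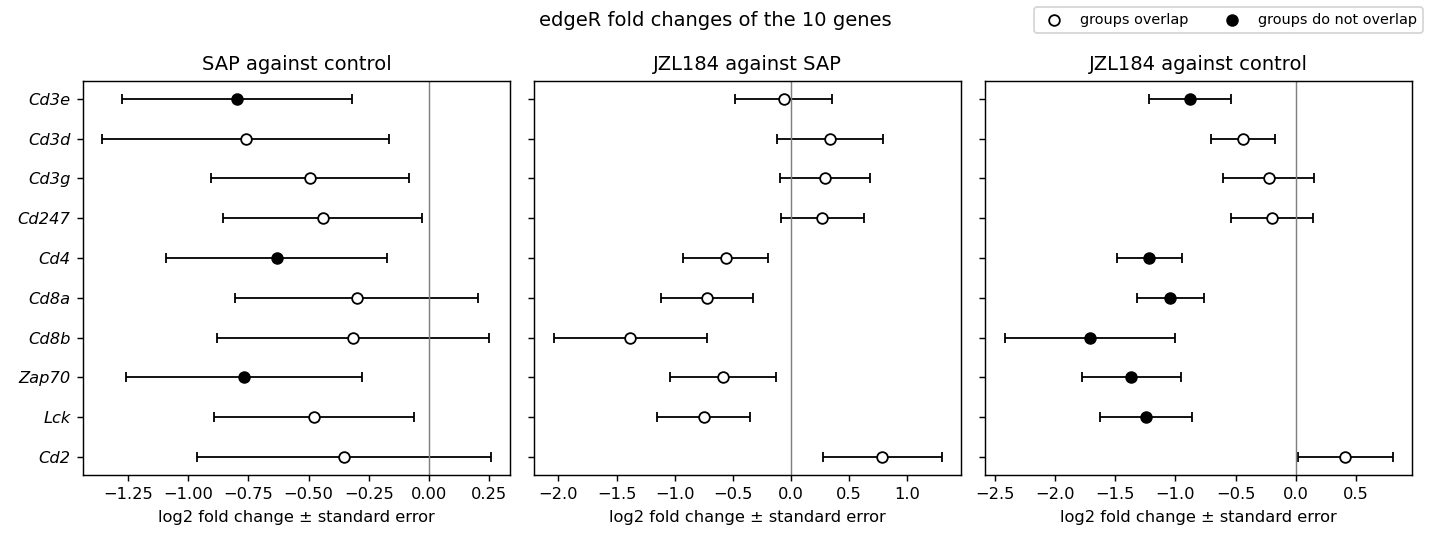
Log2 fold change ± standard error of the 10 genes from edgeR in the 3 comparisons (horizontal axes differ in range), with filled points where normalized counts of the groups do not overlap. In JZL184 against control the coreceptors and kinases lie between -1.71 and -1.04, and Cd2 lies at 0.41.

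The genes whose profile over the 10 samples was most like the mean of Cd3e, Cd3d and Cd3g were sought among 15162 genes, by the root mean square (RMS) difference of centered log2 normalized counts. Outside the members, Gimap5 was nearest with an RMS difference of 0.184, followed by LOC103693274 at 0.185, Gimap7 at 0.206, LOC102554731 at 0.208 and LOC120093687 at 0.214. Gimap5 and Gimap7 encode GTPases of a family expressed in lymphocytes. Of the members, Cd247 was at 0.304, Cd8a at 0.438, Cd4 at 0.446, Zap70 at 0.534, Cd2 at 0.567, Lck at 0.586 and Cd8b at 1.05. Among these the zeta chain followed the CD3 chains most closely and Cd8b least. Their ranks among the 15162 genes were 64, 1093, 1220, 2692, 3328, 3683 and 11102, so many genes outside the members lay nearer than most of them. Cd3d, Cd3e and Cd3g, which make up the mean, ranked 20, 50 and 252. The points of such a profile are the same 10 libraries or samples for every gene, so they share depth and tissue makeup.

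Further genes of TCR signaling were taken from a list of 43, of which 41 were in the files. The list as a whole had a median log2 fold change of 0.02 in SAP against control, -0.12 in JZL184 against SAP and 0.10 in JZL184 against control, close to the medians of all genes (0.06, -0.05 and 0.08). In SAP against control 0 of 41 tested genes were called by edgeR or DESeq2, with 1 higher and 0 lower at an unadjusted p below 0.05 (5.69% and 3.4% of all genes). In JZL184 against SAP edgeR called 0 of 40, with 4 higher and 2 lower at an unadjusted p below 0.05 (10.3% and 11.1% of all genes). DESeq2 called 1 of the list higher, beside 656 higher and 627 lower over all genes. In JZL184 against control 1 of 40 was called higher and 0 lower by edgeR (2.16% of all genes were called), with 5 higher and 8 lower at an unadjusted p below 0.05 (13.8% and 12.5% of all genes). DESeq2 called 2 of the list higher and 1 lower, beside 1021 higher and 878 lower among the 23630 genes it fitted. Its calls in a list were counted over genes that passed edgeR's filter on low counts, those over all genes without this filter, so their shares are not alike.

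The gene called was Cblb, a ubiquitin ligase that restrains TCR signaling. Cblb measured 0.48, 0.61 and 1.15 FPKM in control, 2.65, 3.87, 1.15 and 1.33 in SAP, and 3.75, 2.43, 4.63 and 4.62 in the JZL184 group. It rose in JZL184 against control by 2.16 on the log2 scale (SE 0.40, adjusted p 0.0413, edgeR's quasi-likelihood test with Benjamini-Hochberg adjustment). The adjusted p ran from 1.23e-08 to 0.509 over the alternatives, and the call was lost without control libraries 1 and 2, control library 3, JZL184 library 2 or JZL184 library 4, and with all 3 groups in 1 fit. With 1 library or sample left out, 2 of which fits had a control group of 1, the log2 fold change stayed between 1.75 and 2.70. In SAP against control the estimate was 1.23 (SE 0.55), and in JZL184 against SAP it was 0.97 (SE 0.37), neither past the test. Over the alternatives these 2 estimates ran from 0.52 to 1.77 and from 0.76 to 1.67.

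Ctla4, an inhibitory receptor of activated and regulatory T cells, measured 0.67, 0.72 and 2.03 FPKM in control, 0.86, 0.76, 1.45 and 2.87 in SAP, and 3.57, 4.98, 17.1 and 8.45 in the JZL184 group. Every JZL184 library lay above every other library. The log2 fold change was 2.62 (SE 0.72) against control and 2.60 (SE 0.62) against SAP, with adjusted p of 0.0809 and 0.0909 by edgeR's quasi-likelihood test with Benjamini-Hochberg adjustment, while DESeq2 called it higher in both. Over the alternatives the adjusted p ran up to 0.594 against control and up to 0.217 against SAP. Csk, a kinase that inhibits Lck, was lower in all JZL184 libraries than in any control library (18.2 to 31.8 against 36.6 to 45.4 FPKM) with a log2 fold change of -0.83 (SE 0.28) that did not pass.

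The other genes that the list brings forward by their p did not pass edgeR's test. Cd7, a surface receptor of T and natural killer cells, measured 44.6, 46.1 and 46.5 FPKM in control, 20.8, 28.7, 38.2 and 32.9 in SAP, and 12.3, 15.0, 4.10 and 25.9 in the JZL184 group, with a log2 fold change of -0.77 (SE 0.34) in SAP against control. In JZL184 against control Cd7 stood at -1.68 (SE 0.58), with an adjusted p of 0.122 by edgeR's quasi-likelihood test with Benjamini-Hochberg adjustment and of 0.0402 by DESeq2, which called it lower. No SAP or JZL184 library reached the control level of Cd7. Themis, a protein of thymocyte selection, had 0, 0 and 2 reads in control libraries, 14, 53, 2 and 5 in SAP libraries and 4, 0, 0 and 3 in JZL184 libraries. These are too few for a reliable fold change. Themis was nevertheless the 1 gene of the list counted above as higher in SAP against control at an unadjusted p below 0.05. Sla2, an adapter that dampens TCR signaling, measured 0.30 to 0.62 FPKM in SAP and 0.11 to 0.27 in the JZL184 group, with a log2 fold change of -1.003 (SE 0.39) that did not pass.

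Of 46 genes of T cell subsets, effector function and homing, 41 were in the files. The constant-region genes Trac, Trbc1, Trbc2 and Trdc were among those not analysed here. In SAP against control edgeR and DESeq2 called 0 of 36 tested, with 1 higher and 5 lower at an unadjusted p below 0.05 (5.69% and 3.4% of all genes) and a median log2 fold change of -0.18. In JZL184 against SAP edgeR called 0 of 36 (7 higher and 10 lower at an unadjusted p below 0.05, beside 10.3% and 11.1% of all genes, median -0.04), and DESeq2 called 5 higher and 6 lower, beside 656 higher and 627 lower over all genes. In JZL184 against control edgeR called 1 of 38 higher and 3 lower beside 2.16% of all genes called, with 7 higher and 11 lower at an unadjusted p below 0.05 beside 13.8% and 12.5% of all genes and a median of -0.29. DESeq2 called 6 of the list higher and 8 lower, beside 1021 and 878 of the 23630 genes it fitted, where again only the list was filtered on low counts.

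Gzmb, the granzyme of cytotoxic lymphocytes, measured 31.8, 32.3 and 44.5 FPKM in control, 14.1, 16.7, 19.8 and 22.8 in SAP, and 7.01, 7.24, 10.2 and 7.41 in the JZL184 group. The 3 groups did not overlap. Gzmb fell by 2.30 on the log2 scale in JZL184 against control (SE 0.26, adjusted p 0.0135, edgeR's quasi-likelihood test with Benjamini-Hochberg adjustment). In SAP against control it stood at -1.20 (SE 0.33, adjusted p 0.459) and in JZL184 against SAP at -1.07 (SE 0.28, adjusted p 0.106), which by the same edgeR test did not pass.

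Itgb7, the integrin chain that brings lymphocytes to the gut, measured 10.7, 10.96 and 12.2 FPKM in control, 2.67, 3.55, 9.17 and 6.27 in SAP, and 3.49, 2.28, 1.42 and 1.40 in the JZL184 group. No SAP or JZL184 library reached a control library. It fell by 2.46 in JZL184 against control on the log2 scale (SE 0.39, adjusted p 0.0260, edgeR's quasi-likelihood test with Benjamini-Hochberg adjustment). Il2rb, an interleukin 2 receptor chain of activated T and natural killer cells, which was chosen after its values were seen as the remaining gene called lower, measured 4.49 to 4.77 FPKM in control and 1.29 to 2.27 in the JZL184 group (log2 fold change -1.49, SE 0.31, edgeR adjusted p 0.0489). Cd160, a receptor of epithelial cytotoxic T cells, measured 1.45, 1.67 and 1.70 FPKM in control, 1.38, 1.98, 1.08 and 1.11 in SAP, and 0.36, 0.32, 0.13 and 0.38 in the JZL184 group, with -2.02 (SE 0.44) in JZL184 against SAP on the log2 scale and an edgeR adjusted p of 0.0851 (0.00489 by DESeq2, up to 0.217 over the alternatives). All JZL184 libraries of Cd160 lay below all others.

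Il22, a cytokine of T helper and innate lymphoid cells that acts on epithelium, had 1, 2 and 4 reads in control libraries, 26, 3, 3 and 9 in SAP libraries and 345, 141, 20 and 212 in JZL184 libraries. It rose in JZL184 against control by 6.04 on the log2 scale (SE 1.22, adjusted p 0.0476, edgeR's quasi-likelihood test with Benjamini-Hochberg adjustment), a fitted size that rests on 7 control reads. Against SAP the estimate was 4.43 (SE 0.89), with an edgeR adjusted p of 0.0851, and JZL184 library 3 had fewer reads than SAP library 1. Cd69, a marker of activated and tissue-resident T cells, measured 2.77, 2.32 and 6.03 FPKM in control, 2.65, 3.60, 3.54 and 3.70 in SAP, and 8.40, 4.19, 8.52 and 7.45 in the JZL184 group, with 1.21 (SE 0.29) in JZL184 against SAP and an edgeR adjusted p of 0.0909. The JZL184 libraries of Cd69 lay above all SAP libraries.

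Nkg7, a protein of cytotoxic granules that the list also brings forward by its p in SAP against control, measured 2.19, 1.69 and 2.64 FPKM in control and 0.36, 0.88, 1.38 and 1.11 in SAP. The SAP libraries of Nkg7 lay below all control libraries, and its log2 fold change of -1.43 (SE 0.55) did not pass the test.

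The calls of Gzmb, Itgb7 and Il22 against control were each lost when either control sample or JZL184 library 2 was left out, and those of Itgb7 and Il22 also without JZL184 library 4. With these libraries left out the edgeR adjusted p ran from 0.0540 to 0.192 for Gzmb, from 0.0677 to 0.350 for Itgb7 and from 0.0935 to 0.554 for Il22. The fits without a control sample had a control group of 1, which is assumed to vary like the JZL184 group. With 1 library or sample left out the log2 fold change stayed at -2.47 to -2.12 for Gzmb, -2.73 to -2.28 for Itgb7 and 5.48 to 6.64 for Il22.

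**Figure D4:**
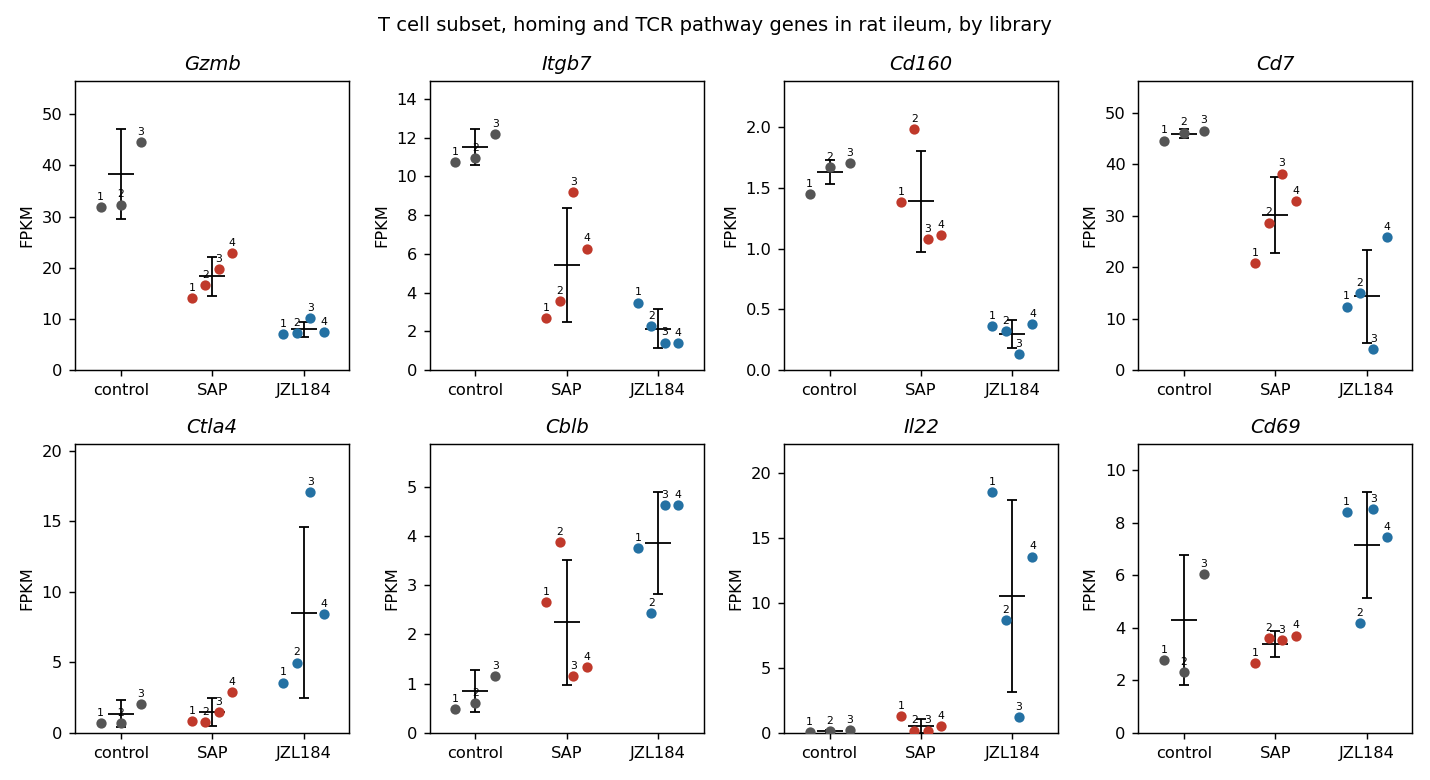
FPKM (vertical axes, each from 0) of 8 genes of T cell signaling, subsets and homing in every library by group, where numbered points are libraries and bars show mean ± SD with control libraries 1 and 2 averaged to 1 sample. Gzmb, Itgb7, Cd160 and Cd7 lie below the control range in all JZL184 libraries, and Ctla4 and Cblb lie above it.

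Markers of other cell types moved with the groups as well. The summed FPKM of 13 B cell and plasma cell markers (top gene Jchain) was 219.6 to 229 in control libraries, 70.8, 105, 203 and 171 in SAP libraries 1 to 4, and 161, 119, 92.6 and 102 in JZL184 libraries 1 to 4. SAP libraries 1 and 2 were thus low in these markers too, as they were in the summed members (56.3 and 112 FPKM, against 143 and 169.6 in SAP libraries 3 and 4). FPKM over all genes also summed lower in SAP libraries 1 and 2 (484256 and 494474) than in any other library (596324 to 679911). The sums of a marker list were not corrected for this. The sum of 10 pan-leukocyte markers (top gene Arhgdib) was 303 to 316 in control, 153 to 336 in SAP and 172 to 298 in the JZL184 group. In SAP against control 8 of these 10 lay below 0, while Ptprc stood at 1.29 (SE 0.77) and Ikzf1 at 2.05 (SE 1.22), neither past the test. The ratio of Cd3e to Ptprc in FPKM was 2.11 to 6.81 in control libraries and 0.32, 0.31, 1.73 and 3.09 in SAP libraries 1 to 4. In JZL184 libraries it was 0.40 to 2.16. The sum of 12 macrophage markers, cells that can carry CD4 in rats (top gene Lyz2), was 1395 to 1562 in control, 815 to 2509 in SAP and 513 to 1335 in the JZL184 group. Most of this sum was Lyz2, with a mean of 1088 FPKM over the libraries. Cd163 and Mrc1, scavenger and mannose receptors of macrophages that were chosen after their values were seen, rose in JZL184 against control by 2.99 (SE 0.55, adjusted p 0.0398) and 2.34 (SE 0.46, adjusted p 0.0454) on the log2 scale by edgeR's quasi-likelihood test with Benjamini-Hochberg adjustment. In SAP against control Cd163 stood at 2.99 (SE 0.63) and Mrc1 at 2.50 (SE 0.50), which DESeq2 called higher and edgeR did not (edgeR adjusted p 0.403 and 0.387). Cd163 measured 0.60 to 0.77 FPKM in control, 2.83 to 13.1 in SAP and 2.65 to 7.66 in the JZL184 group. Other macrophage markers went the other way. Of the 12, 7 lay below 0 in JZL184 against control (median -0.24) and 3 in SAP against control. Csf1r and C1qa, also chosen after their values were seen, stood at -1.42 (SE 0.33) and -1.21 (SE 0.40) in JZL184 against control. Both lay below the control samples without overlap. EdgeR called neither, and DESeq2 called Csf1r lower.

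The sum of 9 enterocyte markers (top gene Fabp6) was 39891 to 40421 in control, 10745 to 24810 in SAP and 4908 to 20828 in the JZL184 group, with the lowest value in JZL184 library 3. The sum of 8 smooth muscle markers (top gene Des) was 1939 to 2152 in control, 880 to 2105 in SAP and 385 to 2154 in the JZL184 group. Neutrophil markers (8 genes, top gene S100a8) summed to 0.97 to 2.33 in control, 8.34 to 82.2 in SAP and 12.4 to 246 in the JZL184 group, and S100a8, Cxcr2, Elane and Fpr1 were at 0 in some libraries. The enterocyte sums of all SAP and JZL184 libraries lay below those of control, and the neutrophil sums of all lay above. A sum follows its most abundant genes, and some markers went the other way. The neutrophil marker Mpo stood at -1.36 (SE 0.57) in SAP and -1.38 (SE 0.52) in JZL184 against control on the log2 scale. Of 9 enterocyte markers 7 lay below 0 in SAP and 6 in JZL184 against control. Cdh1 stood at 0.19 (SE 0.27) in SAP against control.

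Dendritic cell markers (8 genes, top gene Batf3, Siglech at 0 in some libraries) summed to 44.2 to 77.4 in control, 29.5 to 50.2 in SAP and 16.9 to 27.0 in the JZL184 group. The 8 markers of lymphoid stroma and follicles (top gene Ccl21, Gp2 at 0 in some libraries) summed to 179.6 to 223 in control, 79.9 to 269.7 in SAP and 206 to 322 in the JZL184 group, and the 6 endothelial markers (top gene Pecam1) to 18.8 to 22.4, 27.6 to 36.6 and 26.2 to 38.1. Natural killer markers were near 0, with a sum over 7 genes of 0.39 to 1.55 in all libraries, Klrd1 as the top gene, and Ncr1, Klre1, Klri2, Klrc1 and Eomes at 0 in some libraries. The part of these cell types in the members' values was not tested.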

How the data were processed

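RNA of ileum from 3 control, 4 SAP and 4 JZL184 libraries was analysed. The authors trimmed reads with FASTX-Toolkit, aligned them to mRatBN7.2 with HISAT2 and deposited the count of uniquely aligned reads per gene, without normalization. The authors also deposited FPKM with 2 decimals. The counting tool and its annotation were not given in the sources used here. Libraries were stranded. The labels number the libraries of a group without naming a rat, so p-values measure the spread between these samples.

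Groups were compared in pairs with edgeR 4.0.16 (quasi-likelihood test, TMM, default filter with a minimum count of 10) in R 4.3.3, adjusted by Benjamini-Hochberg over all genes tested. A gene was called if its adjusted p was under 0.05 and its fold change over 2 or under 0.5. Reads of control libraries 1 and 2 were summed. No overlap means that TMM-normalized counts of the samples of a pair of groups did not cross. The fit was tested on simulated data.

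Alternatives were DESeq2 1.42.0, limma 3.58.1 (voom, sample quality weights), size factors of DESeq2 in edgeR, no filter, no fold threshold, all 3 groups in 1 fit, separate control libraries, the replicate number as a block, gene length offsets (span 0.3), no SAP libraries 1 and 2, and leaving out each library. DESeq2 with separate control libraries was added after seeing the data.

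The members, lists and rules were chosen with earlier results of these data known. Named genes are the 10 members, the 3 genes with the smallest p of each of 2 lists per comparison, the 5 genes nearest the CD3 profile, and the top marker and markers at 0 of each marker list. The result of 1 gene that this rule names is not reported here. Tables and plots were made with Python 3.11.15, pandas 2.3.3 and matplotlib 3.10.9.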

Additional observations from a re-analysis of the deposited data

Results flagged for a closer look

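Cd3g in JZL184 library 3 lay far from the other libraries of its group. On the log2 scale of normalized counts it stood at -1.27 relative to the control mean, where the others lay between -0.03 and 0.03, and the gap to the nearest library was 0.958 of the whole range of the group. In FPKM it measured 23.5 and the others 46.4 to 56.5, a smaller gap for its range. The CD3 delta chain Cd3d, its neighbor on the chromosome, was highest of the group in the same library at 29.4 FPKM, and the enterocyte markers summed to their lowest value there, 4908 FPKM. The part of the tissue makeup in this value was not tested. Of 20 groups of 4 libraries examined in this way, which were the 10 genes in the SAP and JZL184 groups, this was the only one set apart, and chance alone sets apart about 1 in 20.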

How the results depend on the processing

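None of the 10 members was called in SAP against control or in JZL184 against SAP under any alternative. In JZL184 against control, where edgeR called 0, DESeq2 called 4, limma-voom 5, edgeR with separate control libraries 3, edgeR without a filter 1, DESeq2 with separate control libraries 5, and leaving out 1 library 0 to 3. Over alternatives, 464 fold changes of members kept direction and call, 23 became called and 13 changed sign, the cause of which was not tested.

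Sign changes were, without SAP libraries 1 and 2, Cd8a 0.23, Cd8b 0.18 and Cd2 0.18 in SAP against control, and Cd3d -0.26, Cd3g -0.10 and Cd247 -0.033 in JZL184 against SAP. Cd3e in JZL184 against SAP gave 0.0031 with limma-voom and -0.32 to 0.24 with 1 library left out. Cd3g in JZL184 against control gave 0.019 with gene length offsets and -0.31 to 0.0050 with 1 library left out.

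Genes called over all genes were 0, 0 and 343 in SAP against control, JZL184 against SAP and JZL184 against control. DESeq2 gave 208, 1283 and 1899, limma-voom 14, 699 and 2906, and no filter 14, 27 and 929. All groups in 1 fit gave 4 and 207 in the comparisons with SAP, and length offsets 35 in JZL184 against SAP. Without SAP libraries 1 and 2, SAP against control gave 74. Separate control libraries gave 33 and 2800 against control with edgeR and 1434 and 3482 with DESeq2. Leaving out 1 library gave 0 to 3, 0 to 655 (655 without JZL184 library 1) and 0 to 1867 (0 without control libraries 1 and 2 and 1 without control library 3, both with 1 control sample left, 1867 without JZL184 library 1).

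Replicate numbers did not pair the samples, with correlations of same-numbered deviations from -0.33 to -0.17, from -0.47 to 0.14 and from -0.11 to 0.13 in these 3 comparisons. With the number as a replicate block (and separate control libraries), 1 gene was called in SAP against control, 0 in JZL184 against SAP, where Cd3e turned to 0.025, and 1488 in JZL184 against control, where Cd4 was the 1 member called. With 2 control samples, and few reads for Cd8b, small differences could not be resolved.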
